A study of Homo sapiens with 4 samples.

Results

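Glycolysis and the hypoxia response were followed through 43 genes, out of 26255 gene symbols with a value, chosen by name: 16 glycolytic enzymes, 4 glucose or lactate transporters, 4 regulatory kinases, 5 subunits or oxygen sensors of the hypoxia-inducible factors (HIF) and 14 genes known to be induced by low oxygen. All 43 were present in the files. The set was chosen with earlier results of these data known. The libraries came from 2 human epithelial lines of pancreatic tumours, PSN-1 and MIA PaCa-2, and each line was transfected with a miR-4800-3p mimic, a synthetic copy of that microRNA, or with a scrambled negative control oligonucleotide. This gave 4 groups with 1 library each: PSN-1 with the mimic, PSN-1 with the scramble, MIA PaCa-2 with the mimic and MIA PaCa-2 with the scramble. The study looked for messages targeted by the microRNA. The labels give no dose, time after transfection or oxygen level, and nothing says that any culture was made hypoxic.

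Glycolysis splits glucose into pyruvate in the cytosol, and lactate dehydrogenase and the monocarboxylate transporters dispose of the pyruvate as lactate. Most steps can be run by several paralogous enzymes that differ in regulation and in the tissues that use them. In low oxygen the prolyl hydroxylases of the EGLN family stop marking HIF alpha subunits for destruction, and the stabilised subunit pairs with ARNT and raises transcription of glycolytic enzymes, SLC2A1, VEGFA, CA9 and many others. HIF alpha subunits are controlled mainly at the protein level, which messenger RNA does not show. Pancreatic tumours are known for poor blood supply and high glycolytic activity.

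The microRNA pairs with messages mainly through its seed, bases 2 to 8 from the 5′ end, shown in capitals in the mature sequence from RefSeq (GRCh38.p14, chr4:2250091-2250109, minus strand).
miR-4800-3p: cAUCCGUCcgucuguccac
A site that pairs with the whole seed reads GACGGAT, and a shorter pairing followed by A reads ACGGATA. In GENCODE 29 transcripts (GRCh38, another build than the files' hg19), 1 of the 43 members held such a site in its longest 3′ UTR (2.33%), against 279 of 11185 searched genes that averaged 1 FPKM or more (2.49%). That member was EGLN1, the main HIF prolyl hydroxylase, at chr1:231364890-231364896 on the minus strand. Coding-sequence sites were found in 3 members (6.98%, against 4.36% of the searched genes): HK1 at chr10:69380067-69380073, KDM3A at chr2:86455112-86455118, and EPAS1, where the site spans a splice junction between chr2:46378767 and chr2:46380232, all on the plus strand. The sites are printed with 8 flanking bases on each side, the site in capitals, because these are the members in which the search found a seed site. It covered GACGGAT and ACGGATA alone, in 1 coding transcript per gene. Shorter sites, 5′ UTRs and other transcripts were not searched.
EGLN1 3′ UTR: tgaattggGACGGATgtcttaga
EPAS1 coding: agtacccaGACGGATttcaatga
HK1 coding: ttggtgtcGACGGATctctttac
KDM3A coding: tttctcttACGGATAatcagatt
EGLN1 measured 4.76 FPKM in the PSN-1 mimic library against 7.04 FPKM in the PSN-1 scramble library, and in MIA PaCa-2 8.89 against 10.7 FPKM. FPKM is fragments per kilobase of transcript, scaled to the library's total, so levels of different genes can be set side by side. The mimic library was the lower one in both lines, with log2 changes of -0.48 and -0.24, and limma did not call the shared effect (adjusted p = 0.625). The 3 members with coding sites did not share a direction: HK1 changed by -0.07 in PSN-1 and 0.53 in MIA PaCa-2, KDM3A by 0.61 and 0.22, and EPAS1 by -0.44 in PSN-1, with under 1 FPKM in MIA PaCa-2. Whether any of these sites is used in these cells was not tested.

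Depth was even enough for most members. A level of 1 FPKM was worth an estimated 15.9 and 12.6 fragments per kb in PSN-1 (mimic and scramble) and 14.2 and 12.7 in MIA PaCa-2. A 2 kb transcript at 5 FPKM then rests on about 126 fragments in the shallowest library, for a counting error of 0.18 on a log2 ratio (SE), and at 100 FPKM the error is 0.041. These errors cover counting only and not the spread between cultures, which 1 library per group cannot show. The keratins KRT8 and KRT18 were at 495 to 923 FPKM in all libraries, while EPCAM, an epithelial adhesion gene, was at 28.4 and 24.1 FPKM in PSN-1 and at 0.139 and 0.104 in MIA PaCa-2 (mimic and scramble in each line), and CDH1 was under 2 FPKM throughout. KRT19 was at 78.2 to 178 FPKM, and KRT7 was at 287 and 406 FPKM in PSN-1 and listed at 0 in MIA PaCa-2. CLDN4 was at 0.869 to 6.21 FPKM and CLDN7 at 0.445 FPKM or less. The epithelial markers were thus only partly present. VIM, a mesenchymal filament gene, was at 1144 to 4401 FPKM and ZEB1 at 19.8 to 30.5, but CDH2 was at 0.0514 FPKM or less and DCN at 0.292 or less. FN1, COL1A1, LUM and PDGFRB were under 1 FPKM in MIA PaCa-2 alone, and COL1A2 in PSN-1 alone. COL3A1 was at 36.1 and 45.6 FPKM in PSN-1 and 7.03 and 7.72 in MIA PaCa-2. The leukocyte and endothelial lists had 2 or fewer members at 1 FPKM or more in any library. Of these, CD68 was at 20.1 to 38.7 FPKM over all libraries. In PSN-1, CD14 was at 2.70 and 4.95 FPKM, KDR at 6.50 and 5.43 and PECAM1 at 1.27 and 1.58.

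**Figure D1:**
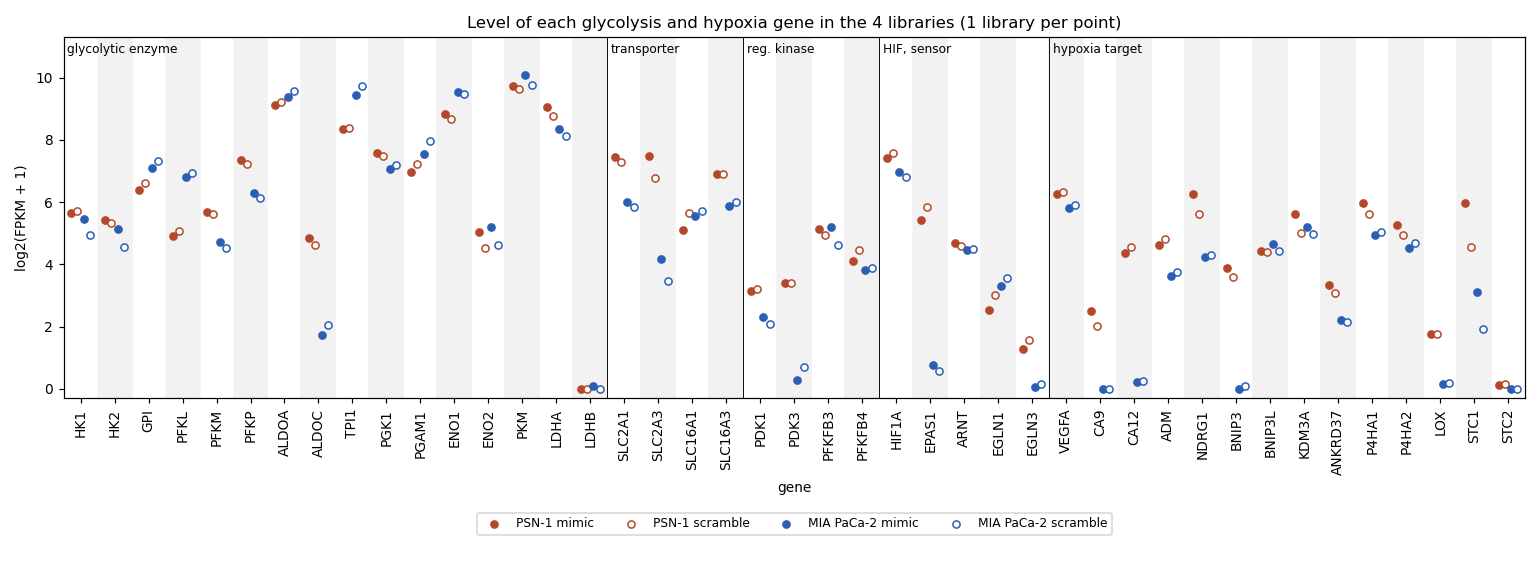
Level of the 43 genes as log2(FPKM + 1), grouped by role along the x axis, with 1 point per library (filled for the mimic, open for the scramble, 1 colour per line). Enzymes such as PKM and ALDOA lie near the top in both lines, LDHB and STC2 lie near 0 in all libraries, and EPAS1, CA9, CA12, BNIP3, EGLN3, LOX and PDK3 stay under 1 FPKM in MIA PaCa-2.

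The glycolytic enzymes were among the abundant messages of both lines. The 16 enzymes summed to 3515 FPKM in PSN-1 with the mimic and 3351 with the scramble, and to 4287 and 4321 FPKM in MIA PaCa-2, which is 0.718%, 0.686%, 0.839% and 0.872% of all FPKM in the same order. GAPDH, a glycolytic enzyme that is not a member, is left out of these sums. It was at 2479, 2476, 4624 and 4904 FPKM in that order. The highest member in every library was PKM, the pyruvate kinase of most tissues and tumours, at 854 and 800 FPKM in PSN-1 and 1080 and 877 FPKM in MIA PaCa-2. ALDOA, the main aldolase, was at 556 and 588 FPKM against 669 and 763. At the other end, LDHB, the lactate dehydrogenase subunit typical of heart, was listed at 0 in 3 libraries and at 0.063 FPKM in MIA PaCa-2 with the mimic. LDHA, the muscle-type subunit, was at 532 and 435 FPKM in PSN-1 and 322 and 277 in MIA PaCa-2, and LDHC, best known from testis, was at 2.68 FPKM or less. A listed 0 can be a failed estimate in files of this kind. Of 82 ribosomal protein genes, 5 were also listed at 0 in each PSN-1 library and 6 in each MIA PaCa-2 library.

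With the mimic, the members past 1.5-fold were all higher, in each line, and STC1 and the glucose transporter gene SLC2A3 were among them in both. In PSN-1, 4 of the 41 members that averaged 1 FPKM or more there were past 1.5-fold higher (9.76%), against 3.17% of all 12233 such genes, and 0 were past 1.5-fold lower, against 3.87%. In MIA PaCa-2, 4 of 34 were higher (11.8%), against 5.43% of 11484 genes, and 0 lower, against 4.06%. With 1 library per group these counts have no test, and in MIA PaCa-2 the count was 1 with a pseudocount of 5 and 2 with TPM scaling. The medians stayed close to 0: 0.07 over the members and -0.02 over all genes in PSN-1, and 0.01 over both in MIA PaCa-2. Each change is the difference of log2(FPKM + 1) between the mimic and the scramble library, and the added 1 shrinks the changes of low genes. In these bulk samples, fewer cells of a type and less RNA per cell cannot be told apart.

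STC1, which encodes the secreted glycoprotein stanniocalcin 1, had the highest change of any member in both lines. In PSN-1 it measured 61.2 FPKM in the mimic library against 22.5 FPKM in the scramble library, a ratio of 2.72 (log2 change 1.40). In MIA PaCa-2 it measured 7.55 against 2.80 FPKM, a ratio of 2.69 (log2 change 1.17, and 0.69 with a pseudocount of 5). The ratios were close although the level in PSN-1 was several times higher. Its paralogue STC2 was listed at 0 in both MIA PaCa-2 libraries and at 0.0975 and 0.123 FPKM in PSN-1 with the mimic and the scramble.

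SLC2A3 encodes GLUT3, a glucose transporter with high affinity that is best known from neurons. It measured 179 against 109 FPKM in PSN-1 (log2 change 0.71) and 17.1 against 10.1 FPKM in the MIA PaCa-2 pair (0.70), with counting errors of 0.024 and 0.075. The mimic library was the higher one in both lines by nearly the same factor. SLC2A1, which encodes the ubiquitous transporter GLUT1, changed by 0.15 in each line. The near-identical gene SLC2A14 was at 0.265 FPKM or less, so few reads were assigned to it, but how the counting split reads between both genes is not given in the sources used here. The lactate transporter gene SLC16A1 was lower in both mimic libraries, at 33.7 against 48.8 FPKM in PSN-1 (-0.52) and at 46.3 against 52.0 FPKM in MIA PaCa-2 (-0.16). SLC16A3, which exports lactate and is itself a hypoxia target, changed by 0.00 and -0.10.

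Of the enzymes, ENO2 had the highest change in PSN-1 and HK2 in MIA PaCa-2. ENO2, neuron-specific enolase, was at 31.9 against 22.2 FPKM in PSN-1 and at 36.0 against 23.8 FPKM in MIA PaCa-2, with log2 changes of 0.50 and 0.58, just under 1.5-fold on this scale. HK2, the hexokinase induced in many tumours, measured 34.4 against 22.3 FPKM in the MIA PaCa-2 pair (0.61), with 41.8 against 39.3 FPKM in PSN-1 (0.09). HK1, the hexokinase of most tissues, measured 43.4 against 29.7 FPKM in the MIA PaCa-2 pair (0.53), while its PSN-1 change was -0.07. Both hexokinases were thus nearer to the PSN-1 levels in the MIA PaCa-2 mimic library than in the scramble library. PGAM1, a phosphoglycerate mutase, had the lowest change of the enzymes in both lines, with -0.24 in PSN-1 and -0.45 in MIA PaCa-2. Over the 15 enzymes measured in both lines, 7 were above 0 in both, 5 below 0 in both and 3 opposite.

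Of the regulatory kinases, PFKFB3, which makes the activator fructose 2,6-bisphosphate, measured 36.1 against 23.7 FPKM in the MIA PaCa-2 pair (0.59), with 34.3 against 29.7 FPKM in PSN-1 (0.20). PFKFB4, a paralogue of it, was at 16.3 against 21.1 FPKM in PSN-1 (-0.35) and 13.0 against 13.8 FPKM in MIA PaCa-2 (-0.08). The PFKFB3 share of the summed message of both genes was 67.8% with the mimic and 58.5% with the scramble in PSN-1, and 73.5% against 63.2% in MIA PaCa-2, so it was higher in the mimic library of each line. PDK1, a kinase that switches off pyruvate dehydrogenase, changed by -0.07 in PSN-1 and 0.22 in MIA PaCa-2.

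Among the hypoxia targets, 10 of 13 measured members were above 0 in PSN-1 (median 0.27) and 4 of 9 in MIA PaCa-2 (median -0.04), against 47.6% and 52.2% of all genes. NDRG1, a stress-induced gene, was at 76.4 against 48.1 FPKM in PSN-1 (0.66) and at 18.0 against 18.5 FPKM in MIA PaCa-2 (-0.04). KDM3A, a histone H3 lysine demethylase, was at 48.5 against 31.5 FPKM in PSN-1 (0.61) and at 35.9 against 30.6 FPKM in MIA PaCa-2 (0.22). The collagen prolyl hydroxylase genes P4HA1 and P4HA2 changed by 0.36 and 0.32 in PSN-1, and by -0.10 and -0.18 in MIA PaCa-2. CA9, a carbonic anhydrase of the cell surface, was at 4.63 against 3.04 FPKM in PSN-1 (0.48, counting error 0.19) and was listed at 0 in MIA PaCa-2. VEGFA, which encodes the angiogenic growth factor, and ADM, which encodes the vasodilator peptide adrenomedullin, had changes between -0.18 and -0.05 in both lines. The 2 lines' changes could not be tested against each other, since that comparison leaves no residual degree of freedom, and 0 of the 34 members measured in both lines were past a log2 change of 0.32 in opposite directions (2.41% of 10678 genes were).

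HIF1A, the widespread HIF alpha subunit, was at 170 against 190 FPKM in PSN-1 (-0.16) and at 125 against 110 FPKM in MIA PaCa-2 (0.19). Its antisense neighbour HIF1A-AS2 was at 67.6 against 84.8 FPKM in PSN-1 and at 56.2 against 44.3 FPKM in the MIA PaCa-2 pair, the same directions as HIF1A in each line. The strand setting of the counting is not given in the sources used here, so reads of the pair may not have been told apart. EPAS1, which encodes HIF-2 alpha, was at 41.7 against 56.8 FPKM in PSN-1 (-0.44). ARNT, the shared partner subunit, changed by 0.10 and -0.03.

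**Figure D2:**
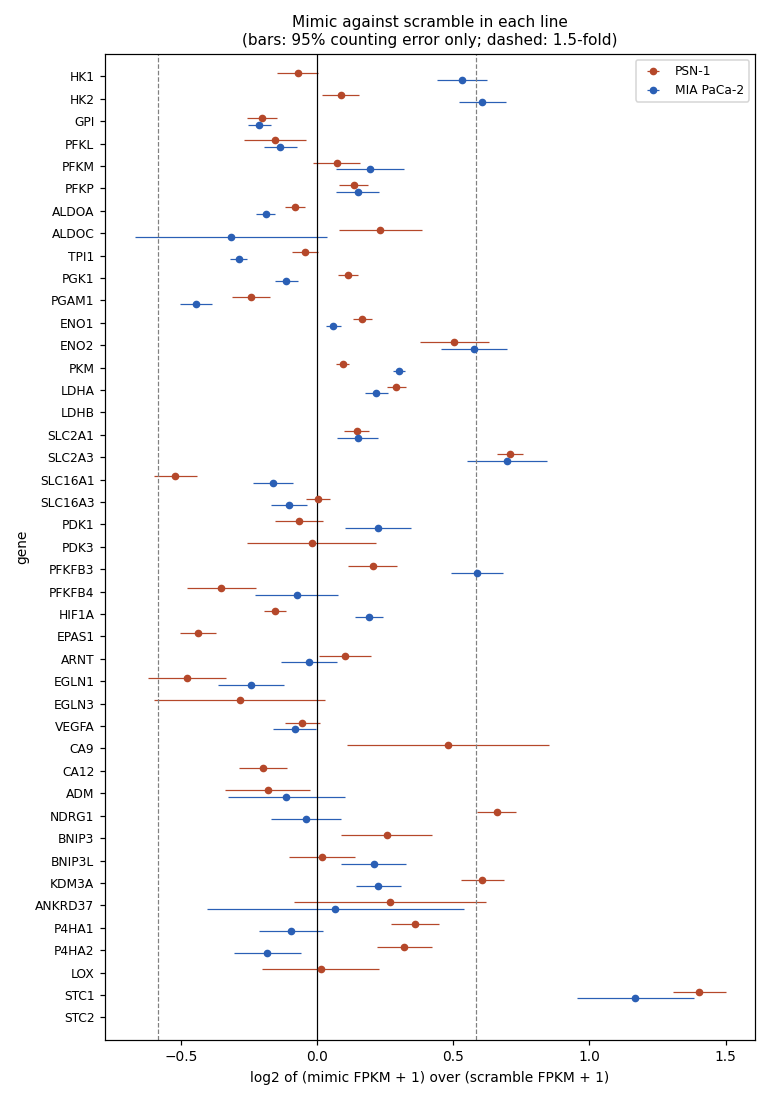
Log2 change of mimic over scramble (x axis) for each member (y axis) in PSN-1 and MIA PaCa-2, where the line averaged 1 FPKM or more. Bars are the 95% counting error alone and dashed lines mark 1.5-fold, and STC1 and SLC2A3 are the genes past the line in both cell lines.

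A mimic effect common to the lines was estimated in limma on all 12423 genes that averaged 1 FPKM or more over the 4 libraries, with cell line as a block. The fit has 1 residual degree of freedom. Its error combines the disagreement of the lines for a gene with a value that limma borrows from all genes of similar level. Of the 40 members tested, 0 were called higher and 0 lower, taking an adjusted p (Benjamini-Hochberg) under 0.05 as the threshold, where 0.0483% of all genes were called higher and 0.00805% lower. LDHB, EGLN3 and STC2 were under the filter. At an unadjusted p under 0.05, limma gave 7 of the 40 members higher and 1 of 40 lower. Over all genes it gave 521 of 12423 higher and 527 of 12423 lower. STC1 had a mean log2 change of 1.29 (SE 0.15, adjusted p = 0.209 in limma), SLC2A3 of 0.70 (SE 0.11, adjusted p = 0.28) and ENO2 of 0.54 (SE 0.12, adjusted p = 0.412), each higher in 2 of 2 lines. LDHA, PKM, PFKFB3 and KDM3A were the other higher members at that level, and PGAM1 was the lower one.

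The lines themselves differed in many members, with more members called higher than lower in PSN-1. The line term of the same fit called 23 of 40 members higher in PSN-1 than in MIA PaCa-2 (57.5%), against 29.2% of all genes, and 8 lower (20%), against 27.3%. With a difference of at least 2-fold as well, 15 were higher (37.5%, against 16.9% of all genes) and 2 lower (5%, against 11.6%). Of the members called higher in PSN-1, 6 were under 1 FPKM in MIA PaCa-2 and entered the fit through their PSN-1 level, which fixed their direction: PDK3, EPAS1, CA9, CA12, BNIP3 and LOX. Of the other 34 members, 17 were called higher and 8 lower. No share over all genes was counted with the same restriction. The median difference was 0.57 over the members and 0.01 over all genes on the log2 scale. The libraries of a line differ in their oligonucleotide, and nothing in the labels says that they came from separate cultures. These p-values rest on the spread that line and oligonucleotide leave over, pooled in part over all genes. They do not measure a spread between replicate cultures. When and how the libraries of each line were made cannot be told apart from the line.

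By role, 10 of 13 tested hypoxia targets were called higher in PSN-1 and 0 lower (6 of 9 without CA9, CA12, BNIP3 and LOX), 3 of 4 transporters were higher and 0 lower, and the 15 tested enzymes were split into 6 higher and 7 lower. Of all genes, 29.2% were called higher and 27.3% lower. Those shares include genes that entered through 1 line, so the count of 6 of 9 has no matching share. CA12, a membrane carbonic anhydrase, was at 19.6 and 22.6 FPKM in PSN-1 (mimic, then scramble) and at 0.167 and 0.178 FPKM in MIA PaCa-2. Its log2 difference was 4.24, in a direction that the filter fixed, as for BNIP3, CA9 and LOX. BNIP3, a mitochondrial protein of mitophagy and cell death, was at 13.6 and 11.2 FPKM in PSN-1, while in MIA PaCa-2 the mimic library listed it at 0 and the scramble library at 0.0549 FPKM (difference 3.70). Its paralogue BNIP3L was at 20.1 to 24.1 FPKM in all libraries and was not called (adjusted p = 0.439 in limma). BNIP3 message was therefore near the detection floor in MIA PaCa-2 while that of BNIP3L was level across the lines. CA9 was at 4.63 and 3.04 FPKM in PSN-1 and listed at 0 in both MIA PaCa-2 libraries. LOX, which crosslinks collagen, was at 2.40 and 2.37 FPKM in PSN-1 and 0.101 and 0.150 FPKM in MIA PaCa-2. NDRG1 was at 76.4 and 48.1 FPKM in PSN-1 and 18.0 and 18.5 in MIA PaCa-2 (difference 1.68, SE 0.20, adjusted p = 0.0019 in limma). STC1 differed by 2.74 (SE 0.15, adjusted p = 0.000218), and its lowest PSN-1 value of 22.5 FPKM lay above its highest MIA PaCa-2 value of 7.55. ADM, ANKRD37, P4HA1 and VEGFA were called higher in PSN-1 too, by 1.01, 1.03, 0.82 and 0.43.

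The HIF machinery differed in its composition. EPAS1 was at 41.7 and 56.8 FPKM in PSN-1 and at 0.708 and 0.475 FPKM in MIA PaCa-2 (difference 4.97, in a direction that the filter fixed). HIF1A was at 170 and 190 FPKM against 125 and 110 (difference 0.61, adjusted p = 0.00974 in limma). EPAS1 thus made up 19.7% and 23.1% of the summed message of both alpha subunits in PSN-1 and 0.561% and 0.43% in MIA PaCa-2. EGLN3, a prolyl hydroxylase that is itself induced by HIF, was at 1.42 and 1.94 FPKM in PSN-1 and at 0.0354 and 0.125 FPKM in MIA PaCa-2. EGLN1 went the other way, at 4.76 and 7.04 FPKM against 8.89 and 10.7 (difference -0.66, SE 0.16, adjusted p = 0.0192). ARNT, at 20.9 to 24.8 FPKM, was not called (adjusted p = 0.317 in limma). Among genes that are not members, EGLN2 was at 9.13 and 15.1 FPKM in PSN-1 and 26.7 and 20.5 in MIA PaCa-2 (difference -0.93, adjusted p = 0.0326 in limma). ARNT2, a paralogue of ARNT, was at 4.09 and 3.52 FPKM in PSN-1 and listed at 0 in MIA PaCa-2, a direction that the filter fixed. VHL and HIF1AN were not called (adjusted p = 0.151 and 0.61 in limma).

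**Figure D3:**
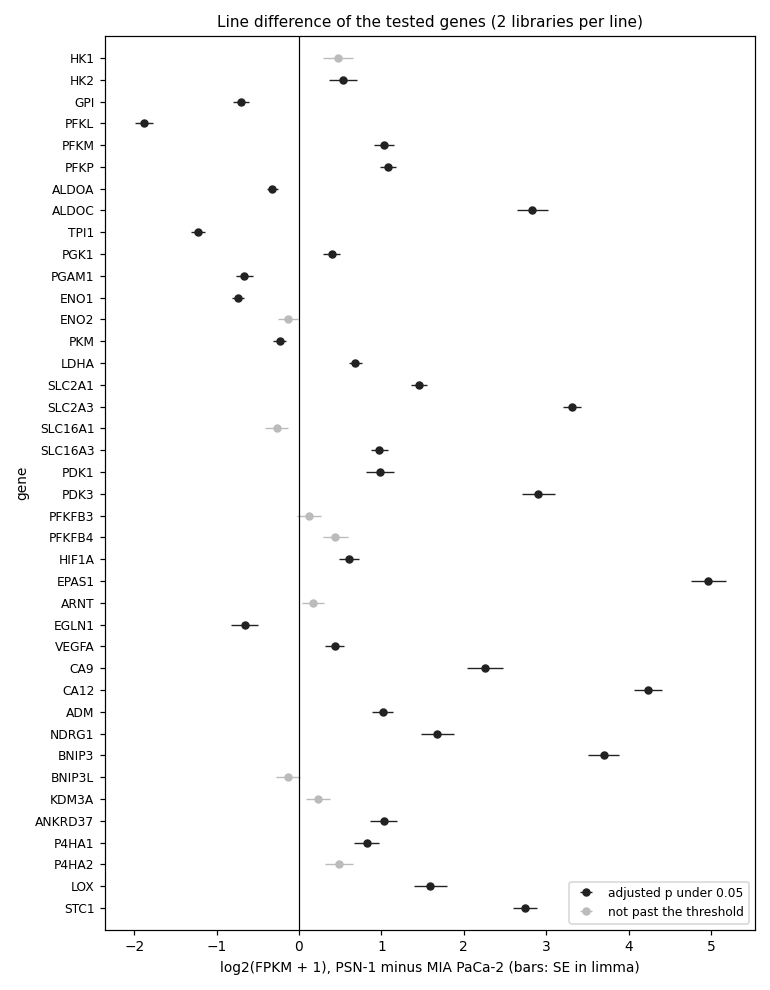
Line difference in log2(FPKM + 1), PSN-1 minus MIA PaCa-2 (x axis), with its SE in limma, for the 40 tested members (y axis). Dark points passed an adjusted p of 0.05, and EPAS1, CA12, BNIP3 and SLC2A3 lie farthest to the right while PFKL and TPI1 lie farthest to the left. PDK3, EPAS1, CA9, CA12, BNIP3 and LOX passed the filter through PSN-1 alone, which fixed their side.

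Use of paralogous enzymes was compared as the share of each gene in the summed FPKM of the listed paralogues within a library, which no scaling between libraries can change. These sums leave out paralogues that are not members: PDK4 and PDK2 (10.1 and 11.8 FPKM in PSN-1, mimic and scramble) were each above PDK1 and PDK3 there, and EGLN2, at 9.13 to 26.7 FPKM, was above EGLN1 in each library. HKDC1, also left out, was at 7.65 and 5.80 FPKM in PSN-1 and 2.64 and 1.19 in MIA PaCa-2. Limma called it higher in PSN-1 (1.44, adjusted p = 0.00269). The SLC2A sums also leave out SLC2A10 (11.7 and 14.3 FPKM in PSN-1, 3.21 and 2.44 in MIA PaCa-2) and SLC2A6 (10.2 and 12.1, then 8.18 and 5.58). SLC2A12 (2.41 and 3.02, then 7.39 and 5.49) and SLC2A13 (8.12 and 7.90 in PSN-1) are left out too. So are ENO3, at 4.05 to 7.30 FPKM, PFKFB2, at 3.89 to 6.65, and SLC16A7, at 2.65 and 3.00 in PSN-1. Phosphofructokinase, the main control point of glycolysis, had a different leading gene in each line. The platelet-type gene PFKP was at 163 and 148 FPKM in PSN-1 and 77.0 and 69.4 in MIA PaCa-2 (mimic, then scramble), and the liver-type gene PFKL was at 29.1 and 32.5 FPKM in PSN-1 and 111 and 122 in MIA PaCa-2. PFKP therefore supplied 67.3% and 64.9% of the message in PSN-1, against 36.1% and 32.6% in MIA PaCa-2, and PFKL averaged 13.1% against 54.6%. The sum of the 3 genes was nearly level, at 242 and 229 FPKM in PSN-1 and 213 FPKM in each MIA PaCa-2 library. The muscle-type gene PFKM took 20.7% and 20.9% against 11.8% and 10.2%. Limma called PFKP (1.08, adjusted p = 0.000874) and PFKM (1.03, adjusted p = 0.00201) higher in PSN-1 and PFKL lower (-1.88, adjusted p = 0.000254).

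The glucose transporters also differed in proportion. SLC2A3 supplied 50.7% and 41.0% of the summed SLC2A1 and SLC2A3 message in PSN-1 and 21.3% and 15.1% in MIA PaCa-2. Both genes were higher in PSN-1, SLC2A3 by 3.31 (SE 0.11, adjusted p = 9.78e-05 in limma) and SLC2A1, at 174 and 157 against 63.1 and 56.8 FPKM, by 1.45 (SE 0.098, adjusted p = 0.000386). Of the lactate transporters, SLC16A3 took 78.1% and 71.1% in PSN-1 and 55.7% and 54.7% in MIA PaCa-2. It was called higher in PSN-1 (0.98, adjusted p = 0.00145), while SLC16A1 was not called (-0.27, adjusted p = 0.154).

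PDK3, a pyruvate dehydrogenase kinase, was at 9.50 and 9.65 FPKM in PSN-1 and 0.220 and 0.638 FPKM in MIA PaCa-2, and its share of the summed PDK1 and PDK3 message was 54.7% and 53.8% against 5.25% and 16.4%. PDK1 was at 7.88 and 8.29 FPKM against 3.97 and 3.26 and was also called (0.98, adjusted p = 0.00657 in limma). ALDOC, the brain-type aldolase, was at 27.6 and 23.4 FPKM in PSN-1 and 2.33 and 3.15 in MIA PaCa-2 (2.83, adjusted p = 0.00038), yet its share of the summed ALDOA and ALDOC message was 4.74% at most, because ALDOA was so much higher. In the enolases, ENO1 fell by 0.74 in PSN-1 relative to MIA PaCa-2 (adjusted p = 0.00111 in limma) and ENO2 was not called (adjusted p = 0.396). HK1 and HK2 kept nearly the same proportions to each other in the lines: HK2 took 46.0% and 43.2% in PSN-1 and 44.2% and 42.9% in MIA PaCa-2, and these ranges overlap. PFKFB3 and PFKFB4 shares overlapped as well. With 2 libraries a line, an exact permutation test of a share could not go below a two-sided p of 1 in 3, so none is given.

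**Figure D4:**
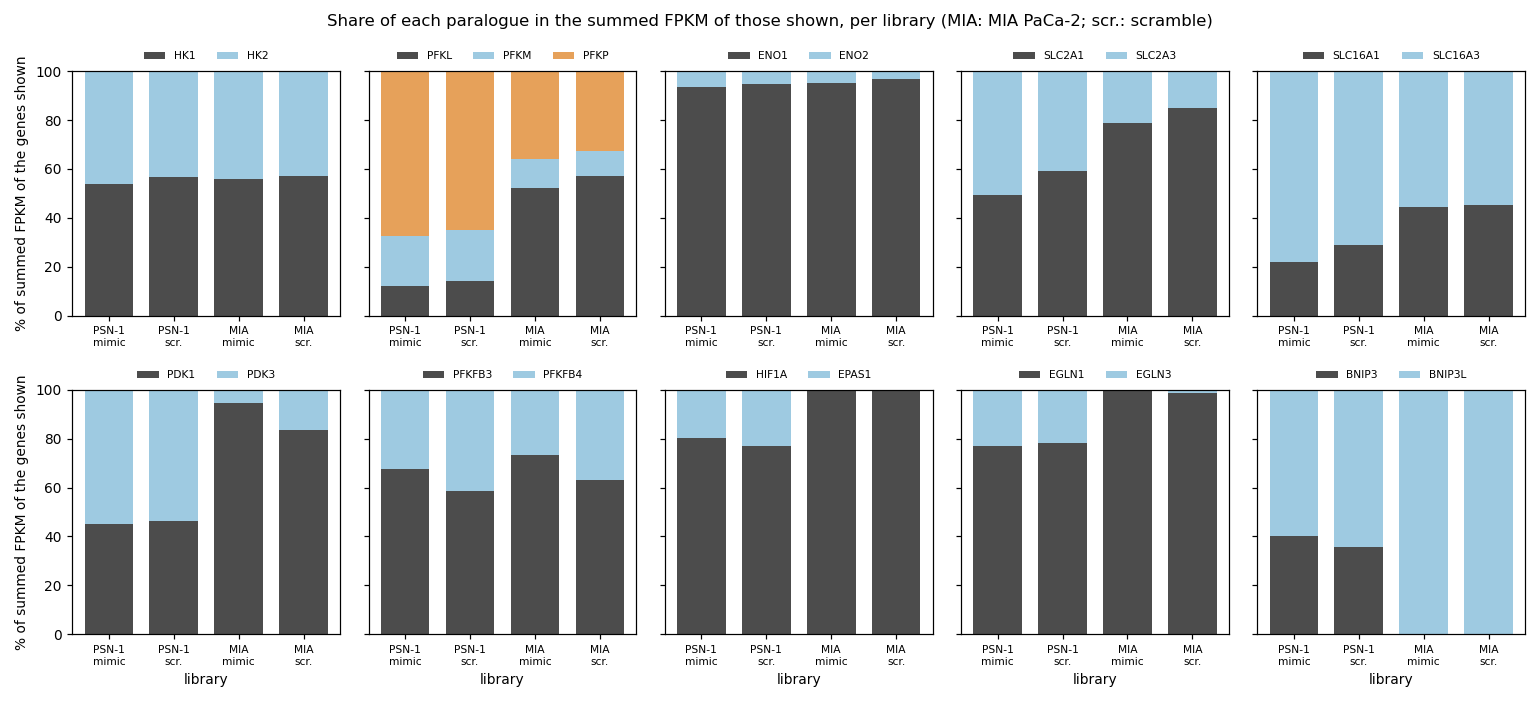
Percent of the summed FPKM of the paralogues shown (y axis), for 10 groups of members, supplied by each gene in the 4 libraries (x axis), as stacked bars from 0 to 100, without error bars since each bar is 1 library. Paralogues that are not members, among them PDK2, PDK4, EGLN2, HKDC1, SLC2A6, SLC2A10, SLC2A12, ENO3 and PFKFB2, are not included. Without them, the PFK, SLC2A, PDK, HIF alpha, EGLN and BNIP3 bars differ between the lines, while the HK bars are nearly equal.

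Besides PFKL and ENO1, 5 enzymes were called lower in PSN-1. TPI1, triose phosphate isomerase, was at 323 and 333 FPKM against 696 and 851 in MIA PaCa-2 (-1.23, SE 0.088, adjusted p = 0.000458 in limma). GPI, PGAM1 and ALDOA were also called lower in PSN-1, by -0.70, -0.66 and -0.32, and PKM by -0.23. LDHA and PGK1 were higher, by 0.68 and 0.40. Among the calls with a difference under 2-fold, those of PKM (adjusted p = 0.048), HK2 (adjusted p = 0.0429), ALDOA, PGK1, EGLN1 and VEGFA were lost in limma under at least 1 of the alternatives run.

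Promoters from RefSeq (GRCh38.p14, 250 bases before to 50 after the annotated start) were searched on both strands for ACGTG and GCGTG, the cores of the hypoxia response element. Entries existed for 37 members, the others being SLC2A3, SLC16A1, VEGFA, NDRG1, BNIP3L and STC1. A core was present in 27 of the 37 (73%), against 48.4% of all 35116 promoters in the table, which include non-coding genes. ACGTG alone was present in 14 (37.8%, against 21.4%). The member promoters held a median of 28 CG dinucleotides, against 14 over the table, and both cores contain CG. The palindrome CACGTG, which other helix-loop-helix factors such as MYC also bind, counts on both strands. The promoters of 3 genes called higher in PSN-1 than in MIA PaCa-2, and of 2 that were higher in both mimic libraries, are shown with the cores in capitals: BNIP3 (chr10:131981874-131982173, minus strand), CA9 (chr9:35673678-35673977, plus strand), ALDOC (chr17:28576846-28577145, minus strand), ENO2 (chr12:6914330-6914629, plus strand) and KDM3A (chr2:86441121-86441420, plus strand).
BNIP3: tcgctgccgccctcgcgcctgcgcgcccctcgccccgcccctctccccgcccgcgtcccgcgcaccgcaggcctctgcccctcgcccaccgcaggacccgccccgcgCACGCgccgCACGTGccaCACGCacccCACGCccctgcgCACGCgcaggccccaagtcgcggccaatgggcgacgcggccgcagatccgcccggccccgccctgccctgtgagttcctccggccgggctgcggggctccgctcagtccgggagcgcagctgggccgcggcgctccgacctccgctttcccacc
CA9: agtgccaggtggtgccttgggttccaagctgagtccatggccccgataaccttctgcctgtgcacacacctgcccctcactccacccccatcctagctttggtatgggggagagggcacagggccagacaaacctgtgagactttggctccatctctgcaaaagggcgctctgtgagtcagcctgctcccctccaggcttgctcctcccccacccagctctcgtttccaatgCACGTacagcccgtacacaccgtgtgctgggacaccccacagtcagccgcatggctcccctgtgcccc
ALDOC: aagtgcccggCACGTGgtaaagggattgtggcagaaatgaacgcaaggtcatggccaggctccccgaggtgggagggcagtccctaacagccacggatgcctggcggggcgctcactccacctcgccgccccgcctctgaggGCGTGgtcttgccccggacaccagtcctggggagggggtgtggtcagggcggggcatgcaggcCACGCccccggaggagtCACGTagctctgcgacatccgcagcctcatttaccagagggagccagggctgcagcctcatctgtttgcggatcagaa
ENO2: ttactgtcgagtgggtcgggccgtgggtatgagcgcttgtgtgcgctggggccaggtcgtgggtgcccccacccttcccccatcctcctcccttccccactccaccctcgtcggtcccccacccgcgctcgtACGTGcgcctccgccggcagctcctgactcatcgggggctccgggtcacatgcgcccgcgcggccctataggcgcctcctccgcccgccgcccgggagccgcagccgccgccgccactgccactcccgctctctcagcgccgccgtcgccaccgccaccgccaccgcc
KDM3A: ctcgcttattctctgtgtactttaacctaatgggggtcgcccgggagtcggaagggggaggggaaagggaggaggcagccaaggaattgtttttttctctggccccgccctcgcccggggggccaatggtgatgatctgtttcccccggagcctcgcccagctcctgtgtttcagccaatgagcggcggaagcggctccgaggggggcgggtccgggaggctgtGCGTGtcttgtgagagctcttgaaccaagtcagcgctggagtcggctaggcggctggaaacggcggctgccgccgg
BNIP3 held 6 cores, ALDOC 5, and CA9, ENO2 and KDM3A 1 each. The promoters of PFKP and PFKM, also called higher in PSN-1 past 2-fold, held 0, and that of PFKL, called lower, held 1. A relation of the cores to the line difference was not tested. Neither occupancy of these letters nor DNA methylation was measured.

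Other genes of the same pathways, from lists chosen with earlier results of these data known, are given by their counts. Of 48 other glycolysis and pyruvate genes, 34 were measured in PSN-1 with 0 past 1.5-fold in either direction, and 32 in MIA PaCa-2 with 2 higher (6.25%, against 5.43% of all genes) and 0 lower. The higher ones were PGM1, phosphoglucomutase, at 71.7 against 47.6 FPKM in PSN-1 (0.58) and at 29.2 against 15.1 FPKM in the MIA PaCa-2 pair (0.90), and HKDC1, a hexokinase-like gene, at 2.64 against 1.19 FPKM in MIA PaCa-2 (0.73). Of 45 other hypoxia response genes, 1 was higher and 3 lower past 1.5-fold among 40 in PSN-1 (2.5% and 7.5%, against 3.17% and 3.87% of all genes). In MIA PaCa-2, 6 were higher and 1 lower among 33 (18.2% and 3.03%, against 5.43% and 4.06%). WSB1, a ubiquitin ligase subunit, was at 53.1 against 32.5 FPKM in PSN-1 (0.69) and 37.3 against 25.9 FPKM in MIA PaCa-2 (0.51). Limma called 0 genes of either list for the mimic, at an unadjusted p of 0.00292 for PGM1 and 0.00464 for WSB1. Between the lines it called 11 of 35 glycolysis and pyruvate genes higher in PSN-1 (31.4%) and 13 lower (37.1%), against 29.2% and 27.3% of all genes. Of 40 hypoxia response genes, 13 were called higher (32.5%) and 12 lower (30%). Some called genes averaged under 1 FPKM in 1 line and entered the fit through the other, which fixed their direction. Through PSN-1 these were SLC2A13, SLC16A7 and PDK4, and from the hypoxia list ARNT2, TMEM45A, PPP1R3C, PLOD2, VLDLR and IGFBP3. LDHC entered through MIA PaCa-2. The shares are therefore not read as a result about either list. PDK4, another pyruvate dehydrogenase kinase, was at 28.0 and 38.6 FPKM in PSN-1 and 0.161 and 0.405 in MIA PaCa-2 (mimic, then scramble, with a log2 difference of 4.73). PLOD2, a lysyl hydroxylase of collagen, was at 46.9 and 39.1 FPKM in PSN-1 and listed at 0 in both MIA PaCa-2 libraries. GAPDH was at 2479 and 2476 FPKM in PSN-1 and 4624 and 4904 in MIA PaCa-2. CITED2, a competitor of HIF for its coactivator, was at 16.8 and 18.4 FPKM against 195 and 115. GAPDH and CITED2 were thus lower in PSN-1, unlike PDK4 and PLOD2, whose direction the filter fixed.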

How the data were processed

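Polyadenylated RNA of 4 libraries was sequenced from a TruSeq stranded mRNA kit, per the labels' protocols. Per the file headers, each deposited value is the FPKM of 1 gene symbol. TopHat2 2.1.1, Cuffdiff 2.2.1 and hg19 are named in the submitters' processing notes, without roles. The annotation, strand setting and any scaling of the libraries were not given in the sources used here.

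Genes that averaged 1 FPKM or more were kept, over a line's libraries for changes within it and over all libraries for the fit. Changes used log2(FPKM + 1), and values past 1.5-fold were counted. The line and mimic effects were fitted together on all genes in R 4.3.3 using limma 3.58.1 (eBayes with trend, two-sided, Benjamini-Hochberg, threshold 0.05), a fit tested on simulated data. The labels pair the libraries by cell line and carry no replicate numbers. Depth came from the steps among low values (235 of 586 in the modal bin), with a fragment length of 200 bases assumed. The members, lists and tests were chosen with earlier results of these data known. All members were named by rule; those described per library were past 1.5-fold in a line, called between lines past 2-fold, or in a paralogue family. A gene of the other hypoxia list is not reported here. Sequences came from RefSeq and GENCODE 29. Alternatives were other pseudocounts, filters, scalings and model terms.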

Additional observations from a re-analysis of the deposited data

Results flagged for a closer look

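Of the genes on the other pathway lists, ANGPTL4 and EGLN2 were past a log2 change of 0.32 in opposite directions in the lines, which was not tested. ANGPTL4 changed by -0.78 in PSN-1 and 1.12 in MIA PaCa-2 on the log2 scale of mimic over scramble. EGLN2, a prolyl hydroxylase of the HIF pathway, changed by -0.67 in PSN-1 and 0.36 in MIA PaCa-2.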

How the results depend on the processing

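The count of members past 1.5-fold higher with the mimic in MIA PaCa-2 was 4, and it was 1 with a pseudocount of 5 and 2 with TPM scaling, which divides out summed FPKM of 510908 with the mimic and 495251 with the scramble. STC1 was past 1.5-fold in both lines under all 6 alternatives run, and SLC2A3 under all but the pseudocount of 5 in MIA PaCa-2 (0.54). In MIA PaCa-2, HK2 (0.53 and 0.57) and PFKFB3 (0.52 and 0.55) were under 1.5-fold with a pseudocount of 5 and with TPM scaling, and PFKFB3 also with median-ratio scaling (0.58). In PSN-1, KDM3A was under it with a pseudocount of 5 (0.55). For the shared mimic effect, limma called 0 members under each of the 8 alternatives; the adjusted p of STC1 ran from 0.1 to 1, and it was 1 with no replicate block, meaning without the cell line as a term. Between the lines, HK2 was not called under 3 alternatives and PKM under 6, HK1, P4HA2 and PFKFB4 were called with median-ratio and TPM scaling, and ALDOA, PGK1 and VEGFA were not called without the trend (adjusted p = 0.111, 0.0791 and 0.0522 in limma) nor EGLN1 without the oligonucleotide term (0.0523). Median-ratio scaling moved the median line difference of all genes to 0.03. Over the results and alternatives run, 0 changed direction. Depth limits what can be said of members under 1 FPKM, and there is no replicate within a group.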
